A study of Mus musculus with 4 samples.

Results

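The 31 genes described here are p53 with a set of its targets and the kinases and partners of the DNA damage checkpoint, chosen by name. Each gene was represented by the probe set with the highest mean among those annotated to exactly 1 gene symbol, and 29 of the 31 genes could be represented in this way, out of 19938 genes on the array. The only probe set that lists Cdkn1a, the gene of the cell cycle inhibitor p21, also lists another gene and was not used, and Trp53 itself was not analysed here. The 29 measured members each had 1 such probe set, and no filter on low values was applied to them.

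The arrays were hybridised with RNA of DN4 thymocytes, the last immature stage without CD4 and CD8 on the surface, sorted from 4 mice that carried floxed alleles of the gene of the transcription factor Ikaros (Ikf/f). In the 2 Cre+ mice (129 and 135) a Cre recombinase that tamoxifen activates was expressed from the Rosa26 locus, which is active in most tissues and not only in thymocytes, and the 2 Cre- mice (131 and 137) had no such recombinase. All 4 mice had received tamoxifen intraperitoneally in sunflower oil, at 50 mg/kg on each of 4 days, and the cells were taken 24 h later. The treatment text of all 4 samples names the Cre-bearing genotype, so Cre status was taken from the titles and the design text. Loss of the Ikaros protein in the Cre+ cells was shown by western blot, per the design text. The Cre+ mice differed from the Cre- mice both in Ikaros and in the presence of active Cre, and no mouse with Cre and without floxed alleles was analysed here, so these factors cannot be told apart.

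The transcription factor p53 is stabilised when kinases of the ATM and ATR branches sense broken or stalled DNA, and it then activates genes for cell cycle arrest, repair and cell death, together with Mdm2, which returns p53 to degradation. Active Cre can cut genomic DNA at sites that resemble its target, so p53 target genes serve as a transcript-level check for such cutting. Developing thymocytes also break DNA at their receptor genes during recombination, and they are known as cells that die readily through p53 after irradiation.

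The values are log2 expression values from RMA, 1 per probe set and mouse. A difference is the mean of the 2 Cre+ mice minus the mean of the 2 Cre- mice on that scale, given with limma's moderated standard error (SE, n = 2 mice per group). The 4 arrays had medians between 6.85 and 6.88, and Pearson correlations across probe sets ranged from 0.994 to 0.997, which describes whole arrays since probe sets are not independent. By Xist and Y-linked transcripts each group held 1 female mouse (129 and 131) and 1 male mouse (135 and 137). Cre- mouse 131 stood apart in genes that respond to handling and stress. The heat shock gene Hspa1a read 8.43 in mouse 131, where the other mice spanned 11.51 to 12.36, and the larger differences that moved when it was left out are given with and without it. The labels name several input amounts of RNA without tying them to the mice, so input RNA could not be examined as a batch.

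None of the 29 members passed the adjusted threshold of 0.05 in limma over all 35556 probe sets, where 0% of probe sets passed. The smallest adjusted p of a member was 0.377, for Ei24. When limma was limited to the 21789 probe sets with 1 gene symbol, 1.22% passed and still 0 members did, with 0.0908 for Ei24 as the smallest adjusted p. At an unadjusted p under 0.05, 4 members were higher in Cre+ cells, namely Ei24, Tnfrsf10b, Ddit4 and Trp53inp1, against 4.12% of all genes, and 0 were lower, against 2.74% of all genes. Leaving out mouse 129 left 1 higher member, Ei24, against 2.08% of all genes, and leaving out mouse 135 left Ei24 and Ddit4, against 2.58%. Leaving out mouse 137 gave 7 higher members against 4.86% of all genes, with Gadd45a, Plk2 and Sesn2 added. Leaving out mouse 131 kept the same 4 higher members, against 3.72% of all genes, and made 1 member lower, Atm, against 3.63%. Of the 29 members, 21 had a higher mean in Cre+ cells, against 45.9% of all genes, and the median difference was 0.07 against -0.01 over all genes. Without mouse 131 the median was 0.02 and 15 members were higher.

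**Figure D1:**
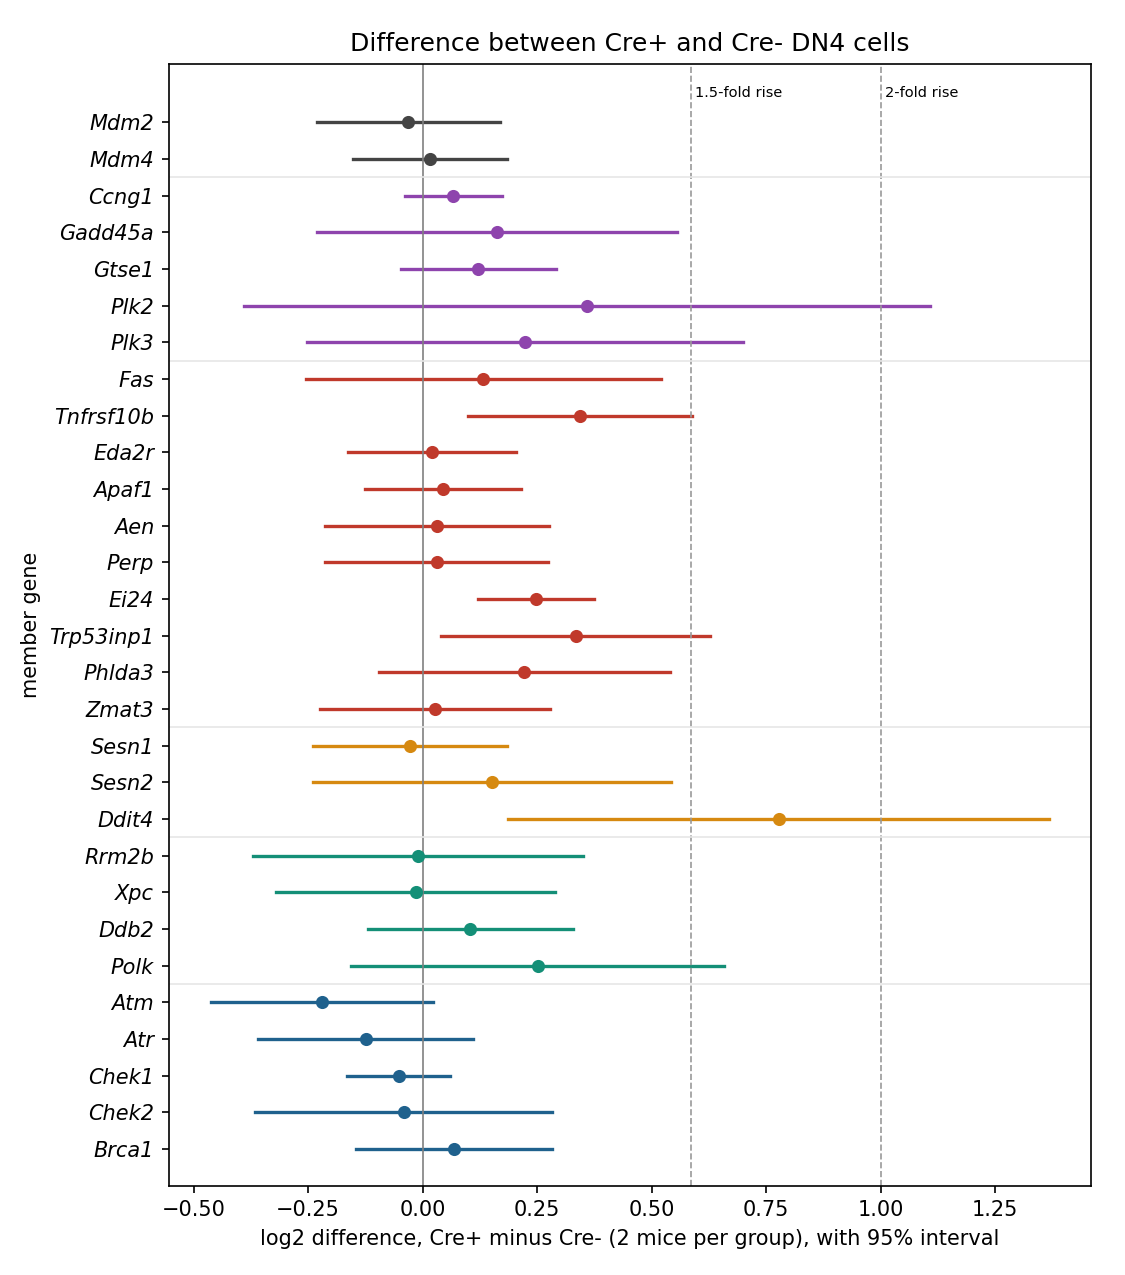
Log2 difference between Cre+ and Cre- DN4 cells for each of the 29 measured members (points), with limma's 95% interval (lines), ordered by role, with dashed lines at a 1.5-fold and a 2-fold rise. The interval lies wholly above 0 for Tnfrsf10b, Ei24, Trp53inp1 and Ddit4, and it reaches a 2-fold rise for Plk2 and Ddit4.

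The intervals give the size of change these 4 arrays leave room for. The 95% interval of limma lay below a 1.5-fold rise in 23 of the 29 members (96.5% of all genes) and below a 2-fold rise in 27 (99.2% of all genes). The exceptions at 1.5-fold were Plk2, Plk3, Tnfrsf10b, Trp53inp1, Ddit4 and Polk. Apart from Tnfrsf10b, the genes with these wide or high intervals had their lowest value in mouse 131.

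RefSeq promoter windows (GRCm38.p6) were available for 22 of the 29 members. p53 binds DNA as a tetramer on paired 10-base elements, and the single element consensus (the p53 response element decamer, its own reverse complement, so that a match counts on both strands) was searched in the 250 bases upstream of each start. It was found in 7 of the 22 members (31.8%) and in 8.20% of 27025 genes with a window. The members include genes chosen by name as p53 targets, so this share describes the choice and was not tested. The windows of 4 members are shown, with the decamer in capitals. They set Ei24, the member with the smallest limma p, beside the classical targets Mdm2, Ccng1 and Gadd45a, which differed by -0.03, 0.07 and 0.16.
Ei24, chr9:36797335-36797384, minus strand: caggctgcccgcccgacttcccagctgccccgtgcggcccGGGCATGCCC
Mdm2, chr10:117710915-117710964, minus strand: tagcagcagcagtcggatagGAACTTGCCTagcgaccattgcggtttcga
Ccng1, chr11:40755442-40755491, minus strand: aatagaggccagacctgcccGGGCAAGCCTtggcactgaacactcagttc
Gadd45a, chr6:67037418-67037467, minus strand: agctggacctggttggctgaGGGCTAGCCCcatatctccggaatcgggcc
The decamer ends at the base just before the annotated start in Ei24 and begins 186 bases upstream in Mdm2, 185 in Ccng1 and 40 in Gadd45a. The other matches were in Aen, Polk and Sesn1. The 7 members with a match had a median difference of 0.07, and the 15 members with a window and no match had a median of 0.07. A match is a run of letters and no evidence of binding.

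The regulators of p53 differed by 0.03 or less between the groups. Mdm2, the ubiquitin ligase that degrades p53 and is itself a p53 target, was at 10.25 and 10.34 with Cre and at 10.25 and 10.40 without it. The Cre+ values lay within the range of the Cre- values, and the difference was -0.03 (SE 0.08, 95% interval -0.23 to 0.17). Mdm4, a relative that holds p53 inactive, was at 10.15 and 10.10 with Cre and at 10.07 and 10.15 without it, again with overlapping groups and a difference of 0.02 (SE 0.07).

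Among genes of cell cycle arrest and the Polo-like kinases, all 5 measured members had a higher mean in Cre+ cells, against 45.9% of all genes. The differences ran from 0.07 to 0.36, and 0 reached an unadjusted p under 0.05 in limma, against 6.86% of all genes. Ccng1, which encodes the p53-induced cyclin G1, was at 11.87 and 11.88 with Cre and at 11.85 and 11.77 without it. The groups did not overlap, and the difference was 0.07 (SE 0.04), with a 95% interval of -0.04 to 0.17 that includes 0. Gtse1, which encodes a protein that shuttles p53 out of the nucleus in dividing cells, was at 9.69 and 9.70 against 9.57 and 9.57, a difference of 0.12 (SE 0.07).

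The other 3 genes of this group were lowest in mouse 131. Plk2, a stress-responsive kinase gene, was at 6.67 and 6.86 with Cre and at 5.98 (mouse 131) and 6.83 (mouse 137) without it. Plk3 was at 8.20 and 7.89 with Cre and at 7.62 and 8.03 without it. Gadd45a, which encodes a growth arrest protein induced by many stresses, was at 8.67 and 8.72 with Cre and at 8.33 and 8.74 without it. In all 3 genes mouse 131 was the lowest of the 4 and the groups overlapped through mouse 137. The differences were 0.36 (SE 0.29), 0.22 (SE 0.18) and 0.16 (SE 0.15). Without mouse 131 they became -0.07 for Plk2, 0.02 for Plk3 and -0.04 for Gadd45a.

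**Figure D2:**
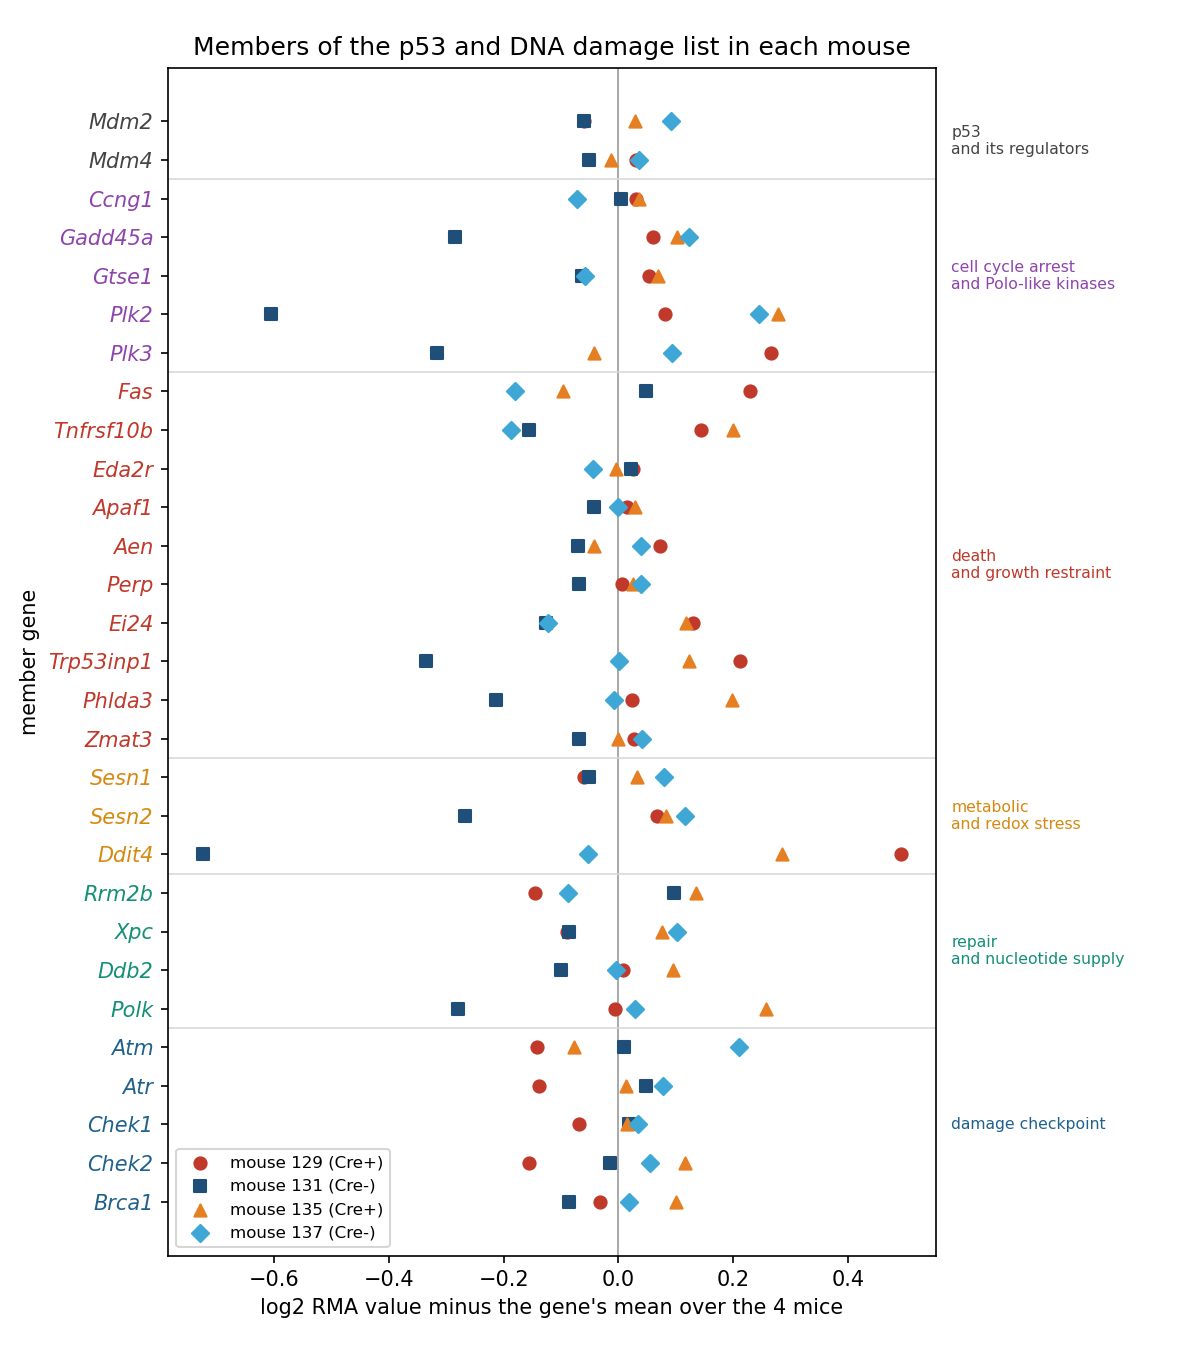
Log2 value of each of the 29 measured members in each of the 4 mice, minus that gene's mean over the 4 mice, with members grouped by role (coloured names) and mice by marker. Mouse 131 lies to the left of the other 3 mice in Plk2, Ddit4, Trp53inp1 and Gadd45a. Both Cre- mice lie to the left of both Cre+ mice in Ddit4, Trp53inp1, Ei24 and Tnfrsf10b, among other members.

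The group of death and growth-restraint genes held 3 of the 4 members with an unadjusted p under 0.05 in limma. These 3 of 10 genes were all higher in Cre+ cells, against 4.12% of all genes. All 10 genes of this group had a higher mean in Cre+ cells, against 45.9% of all genes, with differences from 0.02 to 0.34. In 5 of them the groups did not overlap, against 16.1% of all genes that were higher without overlap. Ei24, a p53-induced gene whose product sits in the endoplasmic reticulum, was at 10.83 and 10.82 with Cre and at 10.57 and 10.58 without it. The Cre+ mice were 0.0106 apart and the Cre- mice 0.00407 apart, and the difference was 0.25 (SE 0.05, 1.19-fold, limma adjusted p = 0.377). It was 0.26 in the female pair and 0.24 in the male pair, and between 0.24 and 0.25 with any 1 mouse left out.

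Tnfrsf10b, which encodes the mouse receptor for the death ligand TRAIL, was at 7.52 and 7.57 with Cre and at 7.22 and 7.18 without it. Both Cre+ values were above both Cre- values, and the difference was 0.34 (SE 0.09, 1.27-fold, limma adjusted p = 0.544). The female pair gave 0.30 and the male pair 0.39. Without mouse 131 the difference was 0.36 for Tnfrsf10b and 0.25 for Ei24, about as large as with it.

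Trp53inp1, which encodes a stress protein that promotes p53 phosphorylation and autophagy, was at 12.25 and 12.16 with Cre and at 11.71 and 12.04 without it. The groups did not overlap, and the difference was 0.33 (SE 0.11, 1.26-fold, limma adjusted p = 0.688). It was 0.55 in the female pair and 0.12 in the male pair, and 0.17 without mouse 131. Phlda3, an inhibitor of AKT signalling induced by p53, was at 7.93 and 8.10 against 7.69 and 7.89, a difference of 0.22 (SE 0.12) that became 0.12 without mouse 131 and 0.13 without mouse 135.

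The other 6 genes of this group differed by 0.02 to 0.13. Fas, the death receptor gene, was at 5.88 and 5.55 with Cre and at 5.70 and 5.47 without it, with overlapping groups and a difference of 0.13 (SE 0.15). Apaf1, the scaffold of the apoptosome, was higher without overlap by 0.04 (SE 0.07, 95% interval -0.13 to 0.21). Aen, a nuclease gene induced by p53, differed by 0.03 (SE 0.09), the membrane protein gene Perp by 0.03 (SE 0.09), the RNA-binding protein gene Zmat3 by 0.03 (SE 0.10) and the ectodysplasin receptor gene Eda2r by 0.02 (SE 0.07). Eda2r was the 1 member with a mean under the 25th percentile of all probe sets.

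Among genes of metabolic and redox stress, Ddit4 had the largest difference of all 29 members. Its product REDD1 inhibits mTORC1, and besides p53 it responds to hypoxia, glucocorticoids and starvation. Ddit4 was at 10.59 and 10.38 with Cre and at 9.37 (mouse 131) and 10.05 (mouse 137) without it. The groups did not overlap, and the difference was 0.78 (SE 0.23, 1.71-fold, limma adjusted p = 0.582). It was 1.22 in the female pair and 0.34 in the male pair, with 0.67 left without mouse 129, 0.44 without mouse 131 and 1.11 without mouse 137. The sestrin genes, whose products restrain mTORC1 and oxidative stress, overlapped between groups. Sesn1 was at 9.61 and 9.70 against 9.62 and 9.75, a difference of -0.03 (SE 0.08). Sesn2 was at 7.79 and 7.80 against 7.45 and 7.83, a difference of 0.15 (SE 0.15) that became -0.04 without mouse 131.

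None of the repair genes, nor the nucleotide supply gene, reached an unadjusted p under 0.05 in limma, against 6.86% of all genes. Ddb2, a sensor of ultraviolet damage, was at 8.90 and 8.99 with Cre and at 8.79 and 8.89 without it, a difference of 0.10 (SE 0.09), or of 0.057 without mouse 131. Polk, which encodes the translesion polymerase kappa, was at 7.42 and 7.68 against 7.14 and 7.45 and differed by 0.25 (SE 0.16), or by 0.10 without mouse 131. Xpc, which recognises bulky lesions, differed by -0.02 (SE 0.12). Rrm2b, which encodes the p53-inducible subunit of ribonucleotide reductase, differed by -0.01 (SE 0.14, 95% interval -0.37 to 0.35), with -0.24 in the female pair and 0.22 in the male pair.

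Of the 5 damage checkpoint genes 4 had a lower mean in Cre+ cells, against 10785 of all 19938 genes. In limma 0 reached an unadjusted p under 0.05, against 6.86% of all genes. Atm, the kinase that responds to double-strand breaks, was at 9.40 and 9.46 with Cre and at 9.55 and 9.75 without it. Both Cre+ values were below both Cre- values, and the difference was -0.22 (SE 0.09, 95% interval -0.46 to 0.02, limma adjusted p = 0.795). Atm was -0.32 without mouse 131 and -0.12 without mouse 137, and its unadjusted limma p was under 0.05 in 4 of 15 alternatives, namely without mouse 131, after quantile normalization or cyclic loess, and among probe sets with 1 symbol. Atr, the kinase of stalled replication forks, was at 8.74 and 8.89 against 8.93 and 8.96, a difference of -0.12 (SE 0.09). Chek1, the effector kinase of the ATR branch, was at 11.68 and 11.76 against 11.76 and 11.78, a difference of -0.05 (SE 0.04). These 3 of 5 genes were lower without overlap, against 20.3% of all genes, though Chek1 in mouse 135 (11.761) and mouse 131 (11.764) nearly met. Chek2, the effector kinase of the ATM branch, was at 7.75 and 8.02 against 7.89 and 7.96, a difference of -0.04 (SE 0.13). Brca1, which acts in homologous recombination, differed by 0.07 (SE 0.08), or by 0.016 without mouse 131, and both of these genes overlapped between groups. Cre+ mouse 129 was the lowest of the 4 mice in Atm, Atr, Chek1 and Chek2. Without mouse 129 the differences were -0.19 for Atm, -0.049 for Atr, -0.011 for Chek1, 0.095 for Chek2 and 0.13 for Brca1.

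**Figure D3:**
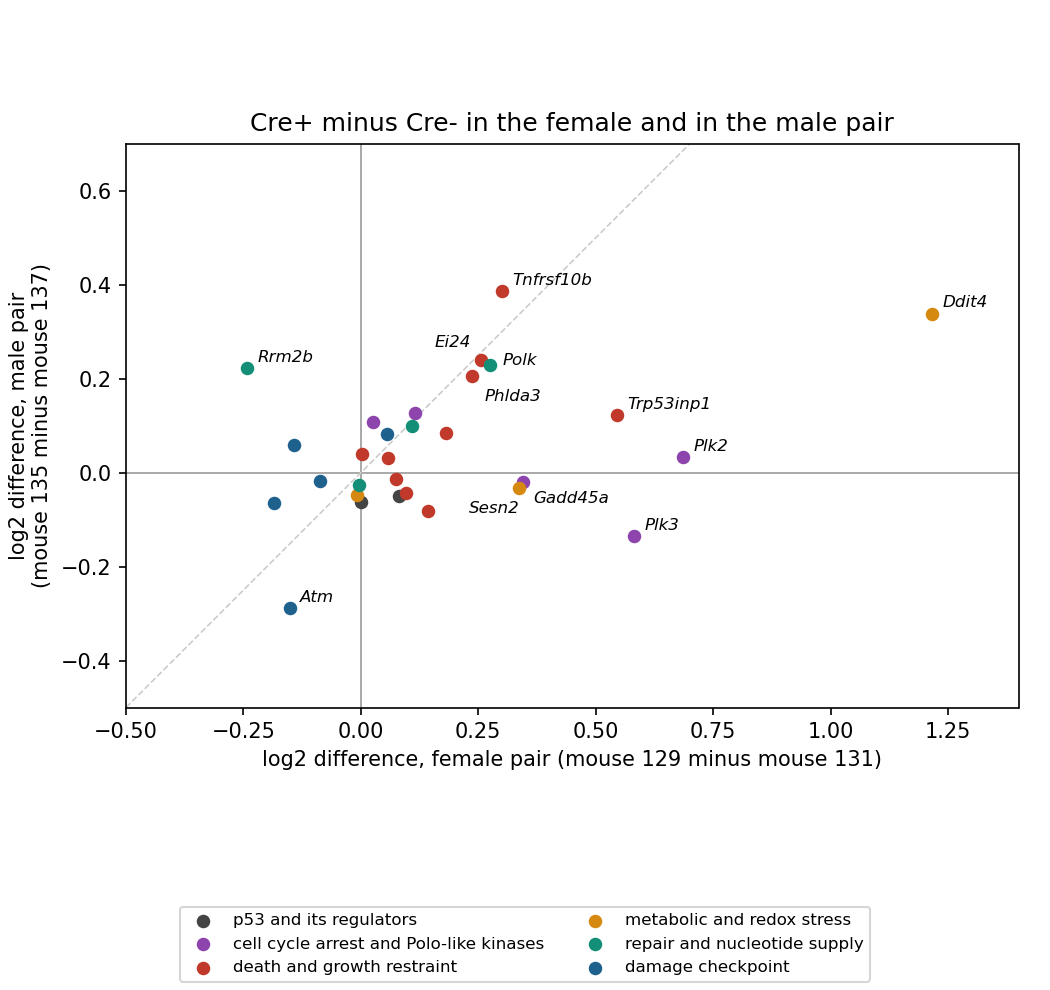
Log2 difference of each of the 29 measured members in the female pair (mouse 129 minus mouse 131, horizontal axis) and in the male pair (mouse 135 minus mouse 137, vertical axis), coloured by role, with the dashed line marking equal differences. Ei24 and Tnfrsf10b lie near the line, at 0.26 and 0.24 and at 0.30 and 0.39, whereas Ddit4, Plk2, Plk3 and Trp53inp1 lie far to the right.

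The female and male pairs share no mouse. The median difference of the members was 0.10 in the female pair and 0.03 in the male pair. In the female pair 22 of 29 members were higher in the Cre+ mouse, against 45.7% of all genes, and in the male pair 16, against 48.5%. In 14 members both pairs were higher, against 4800 of all 19938 genes, and in 5 both were lower, against 5939. In 10 members (34.5%) the signs differed, against 45.8% of all genes. A test of the difference between the pairs was not possible with 1 mouse of each sex in a group.

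Mouse 131 was the lowest of the 4 mice in 18 of the 29 members, against 24.3% of all genes, and it was the highest in 0. The count was 17 after centring of the arrays, 14 after cyclic loess and 11 after quantile normalization was applied again, so that small distances from the other mice depended on the scaling. Under each of these scalings mouse 131 remained the lowest in the genes named next. Their distances were -0.97 for Ddit4, -0.81 for Plk2, -0.45 for Trp53inp1, -0.42 for Plk3, -0.38 for Gadd45a, -0.37 for Polk and -0.36 for Sesn2, each relative to the mean of the other 3 mice. Leaving out mouse 131 turned the sign of 8 members and moved 15 others by over 1.5 times. For mouse 137 these counts were 4 and 16, for mouse 129 they were 8 and 7, and for mouse 135 they were 0 and 17. A list of immediate early genes, a class switched on quickly by receptor signals, with genes of cell handling such as Hspa1a, was lowest in mouse 131 in 19 of 24 genes, and its median deviation from the gene mean was -0.33 in mouse 131, 0.20 in mouse 129, 0.06 in mouse 135 and 0.06 in mouse 137. The list also holds the p53 target Btg2. Of these 24 genes, 22 had a higher mean in Cre+ cells (median 0.26), against 45.9% of all genes. In limma 3 were higher at an unadjusted p under 0.05, against 4.12% of all genes, and 0 passed the adjusted threshold. The median difference was 0.51 in the female pair and 0.005 in the male pair, with 22 and 14 of the 24 genes higher. Nr4a1, a nuclear receptor gene of this list, read 9.09 in mouse 131, where the others spanned 10.11 to 10.71. The part of these shifts in mouse 131 in the differences of Ddit4, Plk2, Plk3, Gadd45a, Sesn2 and Trp53inp1 was not tested.

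**Figure D4:**
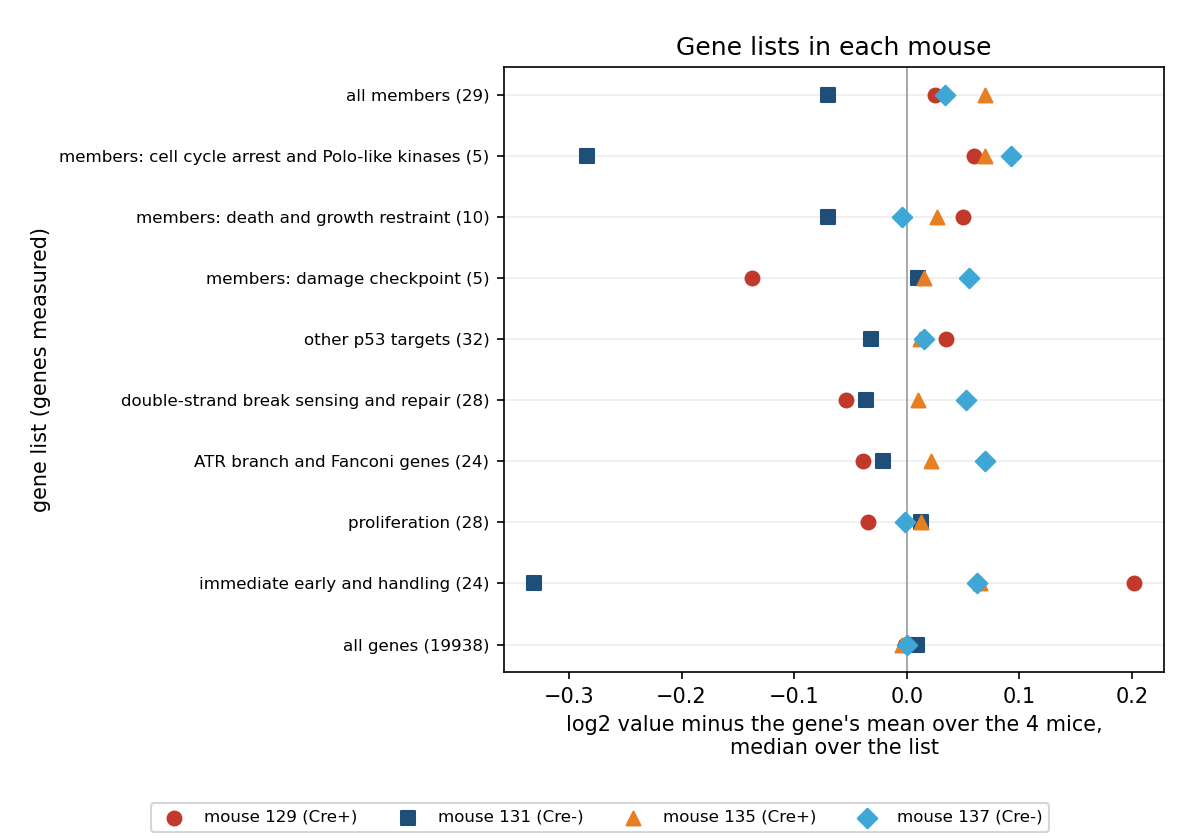
Median over each gene list of the log2 value minus the gene's mean over the 4 mice, for each mouse, with the number of measured genes in parentheses. Mouse 131 is lowest for the members of cell cycle arrest (-0.28) and for immediate early and handling genes (-0.33), mouse 129 is lowest for the checkpoint members (-0.14), and the 4 mice nearly coincide over all genes.

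Further p53 targets that are not among the 31 genes were examined as a list of 36, of which 32 were measured. The list was chosen with earlier results of these data known. In limma 0 of them passed over all probe sets. At an unadjusted limma p under 0.05, 7 were higher, against 4.12% of all genes, and 0 were lower, against 2.74%. A higher mean was seen in 20, against 45.9% of all genes, and the median was 0.04 against -0.01. Among probe sets with 1 gene symbol, of which 1.22% passed, 3 genes of the list passed, all higher in Cre+ cells. Psrc1, which encodes a microtubule-associated protein of the mitotic spindle, was at 10.21 and 10.29 with Cre and at 9.42 and 9.29 without it, a difference of 0.89 (SE 0.08, limma adjusted p = 0.0871 over all probe sets and adjusted p = 0.00171 among those with 1 symbol). Ephx1, a detoxifying epoxide hydrolase gene, differed by 0.61 (SE 0.10, adjusted p = 0.0301 in the limma fit of probe sets with 1 symbol). Pmaip1, the gene of the death protein Noxa, was at 7.65 and 7.45 against 6.98 and 6.90, a difference of 0.61 (SE 0.11, adjusted p = 0.0392 in the same limma fit). The female and male pairs gave 0.78 and 1.001 for Psrc1, 0.69 and 0.52 for Ephx1 and 0.67 and 0.55 for Pmaip1. The lipid hydrolase gene Abhd4 differed by 0.37 (SE 0.08) and did not pass in either fit.

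Genes that sense and repair double-strand breaks had lower means in 19 of 28 cases, against 10785 of all 19938 genes. Their median was -0.03, with differences from -0.26 to 0.10. In limma 0 of them passed and 0 had an unadjusted p under 0.05, against 6.86% of all genes. The end-joining genes Prkdc and Lig4 differed by -0.26 (SE 0.13) and -0.16 (SE 0.08), and the helicase genes Blm and Brip1 by -0.14 (SE 0.06) and -0.13 (SE 0.06). The list of the ATR branch and Fanconi genes holds genes that act on stalled forks and crosslinks. Of these, 15 of 24 had lower means, against 10785 of all 19938 genes, and 0 passed. At an unadjusted limma p under 0.05, 2 were lower, against 2.74% of all genes. These were the partner genes Fanci and Fancd2, which differed by -0.43 (SE 0.09) and -0.32 (SE 0.08). Fanci was at 9.03 and 9.18 with Cre and at 9.51 and 9.57 without it, so that both Cre+ values were below both Cre- values. Fanca and Rad1 of the same list differed by -0.22 (SE 0.09) and -0.17 (SE 0.10). Several of these genes and Chek1, Brca1 and Gtse1 are known to vary with the cell cycle. Proliferation genes had higher means in 11 of 28 cases, against 45.9% of all genes, with a median of -0.01. In limma 1 of them, the thymidine kinase gene Tk1, had an unadjusted p under 0.05 (0.14, SE 0.05), against 6.86% of all genes.

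The sorted cells were compared for markers of thymocytes and of other cells, since in bulk samples fewer cells of a type and less RNA per cell cannot be told apart. Of 10 measured genes of immature T cells 9 were higher in Cre+ cells, against 45.9% of all genes. Cd3d, Cd3e, Cd3g and Rag1 passed among probe sets with 1 symbol (0.66, 0.25, 0.37 and 0.38), of which 1.22% passed. The mean log2 level of this list was 11.42 and 11.31 in Cre+ mice against 11.11 and 11.06 in Cre- mice. Of 7 coreceptor and DN stage genes 1 was higher, against 45.9% of all genes, and 6 were lower, against 10785 of all 19938 genes. Cd4 differed by 0.54 (SE 0.11), Cd8a by -0.61 (SE 0.21), Cd8b1 by -0.27 (SE 0.08) and Cd44 by -0.42 (SE 0.10), none of which passed in either limma fit. Absence of CD4 and CD8 could not be checked, since RMA values carry no detection call, and for the same reason no marker is listed at 0. The mean levels of the marker lists of other cells were 6.64 and 6.63 in Cre+ against 6.49 and 6.63 in Cre- for B cells (7 genes), 6.51 and 6.50 against 6.69 and 6.64 for NK cells (8 genes), and 6.05 and 6.15 against 6.02 and 6.18 for myeloid cells (11 genes). They were 6.58 and 6.56 against 6.73 and 6.66 for gamma delta T cells (5 genes), from 6.25 to 6.44 over all 4 mice for erythroid cells (3 genes), and 7.26 and 7.28 against 7.40 and 7.31 for thymic stroma (7 genes). In the B cell list 3 genes were higher and 4 lower (median -0.18), and in the myeloid list 6 and 5 (median 0.01). In the NK list 3 were higher and 5 lower (median -0.05), and in the gamma delta list 1 and 4 (median -0.02). Over all genes 45.9% were higher. Among these genes Igll1 of the B cell list (1.38) and Lyz2 of the myeloid list (1.04) were higher. Nkg7 of the NK list (-1.04) and Blk of the gamma delta list (-0.51) were lower. Each of these 4 named genes passed among probe sets with 1 symbol, of which 1.22% passed. The part of these shifts in the differences of the p53 targets was not tested.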

How the data were processed

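Each mouse gave 1 Affymetrix array, for which total RNA of its sorted DN4 cells was amplified in 2 labelling cycles (per the labels' protocols). Deposited are log2 expression values that RMA produced, as the submitters' processing notes name it. Their scale was judged from the range of 3.14 to 14.4. The RMA version, any filter and the genome build were not given in the sources used here. Of 35556 probe sets, 21789 had 1 gene symbol in the platform annotation, 1621 had several and 12146 were not listed. Gene numbers found 21698 in RefSeq and changed 0 symbols. 0 sample columns were left unused.

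Groups came from the titles. All probe sets were fitted in limma 3.58.1 (R 4.3.3; lmFit, eBayes with intensity trend, 2 residual and 2.99 prior degrees of freedom), two-sided, with Benjamini-Hochberg adjustment over all 35556 and a threshold of 0.05. With 2 against 2 mice an exact permutation test cannot give a p under 0.333. No further normalization was applied. The fit was tested on simulated data. The members, the lists and the rules were chosen with earlier results of these data known, so counts over them are descriptions and no list was tested. Every measured member is named, and of each other list the genes named come from the 4 with the smallest p and any that passed in either fit. Hspa1a is named outside this rule, for its low value in mouse 131, and Btg2 is named as a p53 target. H2afx was found as H2ax. Alternatives were array scaling, filters, variance models, the features tested, sex as a block and leaving out each mouse.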

Additional observations from a re-analysis of the deposited data

How the results depend on the processing

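None of the 29 members passed the adjusted threshold under the 11 alternatives that kept all 4 mice. In 8 of these the difference equals the reported one by construction, and only its error changes. Under the 3 array scalings, which can move it, 86 of 87 values kept their direction. The exception was Rrm2b, at 9.55e-05 after centring of the arrays. The count of members with mouse 131 lowest was 11 after quantile normalization was applied again. With 1 mouse left out, where the lone mouse of a group is assumed to vary like the others, the count at an unadjusted p under 0.05 in either direction ranged from 1 to 7. Ei24 had an unadjusted limma p under 0.05 under all 15 alternatives (0.00175 to 0.0291), Ddit4 under 14, Tnfrsf10b under 13 and Trp53inp1 under 12, all higher. Atm was lower at this level under 4, and Gadd45a, Plk2 and Sesn2 were higher under 1 each.

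Leaving out 1 mouse turned 20 of 116 values, in 14 members. The ranges were -0.11 to 0.045 for Mdm2, -0.027 to 0.060 for Mdm4, -0.042 to 0.37 for Gadd45a, -0.065 to 0.78 for Plk2, -0.030 to 0.30 for Fas, -0.012 to 0.054 for Eda2r, -0.027 to 0.088 for Aen, -0.023 to 0.085 for Perp, -0.028 to 0.081 for Zmat3, -0.093 to 0.038 for Sesn1, -0.041 to 0.34 for Sesn2, -0.15 to 0.13 for Rrm2b, -0.11 to 0.078 for Xpc and -0.18 to 0.095 for Chek2.

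The number of arrays limits every value, and signal over background was not analysed here. The labels give the groups no shared replicate number, so no fit by replicate number was made. With sex as a block, which pairs the mice by sex, the same 4 members had an unadjusted limma p under 0.05 and 0 passed the adjusted threshold. The filters left out 1 member under the 25th percentile and 5 under the median, which have no value there. No member had a second probe set, so the mean over a gene's probe sets changed nothing.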
